A study of Mus musculus with 6 samples.

Results

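Among genes that restrain MAP kinase signalling, 10 were followed in whole hippocampus of mice lacking Tet1 and of wild-type mice after a seizure. They are the dual-specificity phosphatase genes Dusp1, Dusp4, Dusp5, Dusp6, Dusp10 and Dusp14, the Sprouty genes Spry2 and Spry4, and the Spred genes Spred1 and Spred2. They were taken by gene symbol from a table of 23361 genes, and all 10 were present and passed the filter on low values. The mice were either Tet1Δe4-/-, homozygous for a deletion in Tet1 (called Tet1-deficient below), or Tet1+/+ (wild-type), with 3 libraries and, per the design text, 3 mice of each genotype. The Tet1 protein is an enzyme that oxidises methylated cytosine, a step toward demethylation. Every mouse, wild-type included, was given an electroconvulsive shock through ear clamps (18 mA, 100 Hz, pulses of 0.2 ms, 1.15 seconds) and its hippocampus was taken 1.5 to 2 hours later. Unshocked mice were not analysed here, so the values are levels after the seizure and not induction by it. The sources used here do not give strain, age or sex.

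MAP kinases such as ERK are switched on when a threonine and a tyrosine in their activation loop are phosphorylated. The dual-specificity phosphatases remove both phosphates. Dusp6 protein acts on ERK in the cytoplasm and Dusp5 protein on ERK in the nucleus, Dusp1 and Dusp4 are nuclear phosphatases of ERK, JNK and p38, and Dusp10 acts mainly on JNK and p38. Sprouty proteins act further upstream, between receptor tyrosine kinases and Ras, and Spred proteins bring the Ras inactivator neurofibromin to the membrane. Several of these genes are themselves transcribed in response to ERK activity or calcium entry, which closes a negative feedback loop, and strong neuronal firing is a known trigger.

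RefSeq promoter sequences (GRCm38.p6, the build of the deposited mm10 values) were matched for 8 of the 10 genes; Dusp4 and Spry4 had no entry. The upstream part of 3 of them is shown, because Dusp6, Dusp5 and Dusp1 were the phosphatase genes that varied most over the 6 libraries. Dusp6 and Dusp1 were highest in wild-type replicate 1, where Dusp5 was lowest. Each window begins 250 bases before the RefSeq start, runs 5′ to 3′ on the gene's strand and stops before the first annotated exon base. Capitals mark matches to the CRE core TGACG on either strand, to the full CRE TGACGTCA, which contains that core, or to a CArG box, the site bound by serum response factor.
Dusp6, chr10:99262981-99263230, plus strand: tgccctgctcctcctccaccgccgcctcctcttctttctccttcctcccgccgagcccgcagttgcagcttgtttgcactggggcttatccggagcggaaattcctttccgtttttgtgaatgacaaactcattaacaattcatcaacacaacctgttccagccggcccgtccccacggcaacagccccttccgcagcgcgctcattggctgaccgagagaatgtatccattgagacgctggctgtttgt
Dusp1, chr17:26508520-26508722, minus strand: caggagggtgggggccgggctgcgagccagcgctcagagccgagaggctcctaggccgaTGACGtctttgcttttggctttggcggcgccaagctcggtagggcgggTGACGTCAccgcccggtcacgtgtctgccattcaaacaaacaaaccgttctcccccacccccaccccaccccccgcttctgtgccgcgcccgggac
Dusp5, chr19:53528895-53529108, plus strand: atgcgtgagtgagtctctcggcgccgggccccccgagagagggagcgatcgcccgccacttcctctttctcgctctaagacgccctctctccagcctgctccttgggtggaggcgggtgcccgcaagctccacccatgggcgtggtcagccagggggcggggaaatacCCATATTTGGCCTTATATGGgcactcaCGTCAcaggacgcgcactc

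In the full windows of 300 bases (250 before to 50 after the start), Dusp1 held 1 full CRE, 143 bases before the start, and a separate CRE core 191 bases before it. Dusp5 held 2 CArG boxes side by side, beginning 82 and 72 bases before the start, and a CRE core 55 bases before it. Spred2 held 1 CRE core, inside annotated exon sequence, and the windows of Dusp6, Dusp10, Dusp14, Spred1 and Spry2 held 0 matches to these motifs. No member window matched the AP-1 motif TGANTCA or the EGR motif GCGNGGGCG, searched on both strands. Over all 32851 promoter windows of this length, 20.8% held a CRE core, 1.79% a full CRE, 1.63% a CArG box, 7.81% the AP-1 motif and 5.55% the EGR motif. A match describes the letters in the window and is not evidence of binding.

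The targeted gene was low in every library. Tet1 measured 0.977, 0.718 and 0.897 FPKM (fragment counts divided by transcript length and library size) in wild-type replicates 1 to 3 and 0.740, 0.685 and 0.638 FPKM for Tet1-deficient replicates 1 to 3. Since a gene-level value sums all exons, it is no check of a deletion within the gene. The FPKM table holds no read counts, so the depth behind each value is unknown. Wild-type replicate 1 and Tet1-deficient replicate 1 stood apart from the other 4 libraries on the first principal component, which held 53.3% of the variance over tested genes. The title code of the former carries an f, unlike the m of all others, and no label says what these letters mean. Transcript GC content moved with this split. In the fifth of tested genes with the lowest GC content the median log2 deviation from the gene mean was 0.18 in wild-type replicate 1 and 0.27 in Tet1-deficient replicate 1. In the fifth with the highest GC content it was −0.21 and −0.22.

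None of the 10 genes passed the test for a genotype difference, with 3 libraries per genotype. In limma's moderated test 0 of 10 passed an adjusted p of 0.05, where 0.0319% of the 12533 tested genes did, and 0 of 10 had an unadjusted p under 0.05, where 1.36% did. The adjusted p was 1.00 for each of the 10. In the deposited values the groups overlapped for all 10, while they did not overlap for 4.13% of tested genes. Of the 10, 7 lay above 0 and 3 below in Tet1-deficient minus wild-type log2(FPKM + 1), with a median of 0.02. Over all tested genes 52.9% lay above 0 and the median was 0.0055.

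**Figure D1:**
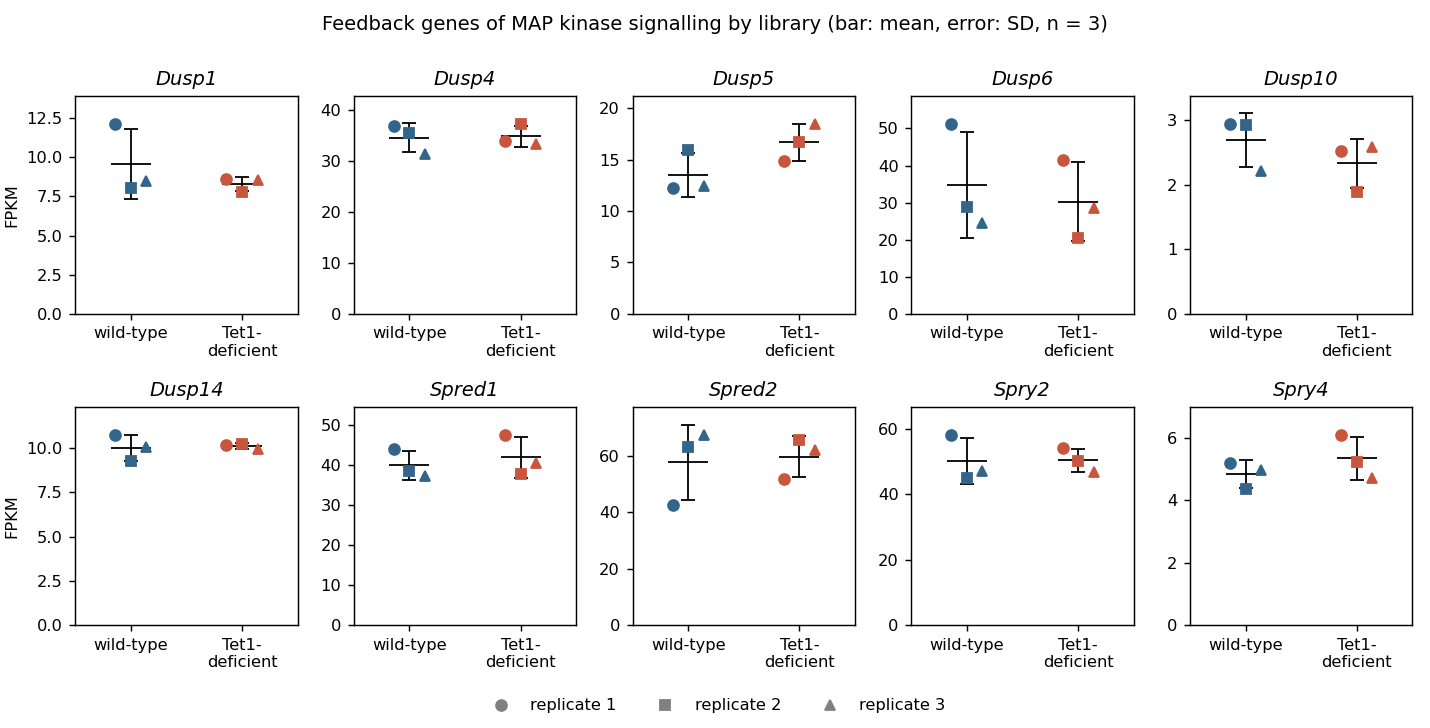
FPKM of the 10 feedback genes in each library, on linear axes that start at 0, with wild-type in blue and Tet1-deficient in red. Marker shapes are replicates and pair nothing across genotypes; bars are means with SD (n = 3). The groups overlap in every panel, and in the Dusp6 panel replicate 1 of each genotype lies above the other 4 libraries.

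By level per transcript length, the 10 genes spanned from 2.51 FPKM (Dusp10) to 58.7 FPKM (Spred2) as means over 6 libraries. The highest 3 were Spred2, Spry2 and Spred1, while Spry4 was among the lowest. Spred2 (58.7 FPKM) and Spry2 (50.3 FPKM) changed places between libraries, with Spred2 above Spry2 in 4 of 6. Spry2 lay above Spred1 (40.9 FPKM) and Spred1 above Dusp4 (34.8 FPKM) in 6 of 6 libraries. Dusp4 and Dusp6 (32.5 FPKM) did not keep an order, with Dusp4 above in 4 of 6. Dusp5 (15.1 FPKM) followed and lay above Dusp14 (10.1 FPKM) in 6 of 6, and Dusp14 was above Dusp1 (8.93 FPKM) in 5 of 6. Spry4 (5.09 FPKM) and Dusp10 (2.51 FPKM) were the lowest, each below its neighbour in 6 of 6 libraries. Spred2 thus ranked above 89.6% of tested genes in level and Dusp10 above 13.8%.

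Dusp6, the cytoplasmic ERK phosphatase gene, varied most among libraries. It measured 51.2, 28.8 and 24.4 FPKM for wild-type replicates 1 to 3 and 41.6, 20.5 and 28.7 FPKM for Tet1-deficient replicates 1 to 3. Replicate 1 of each genotype was high, the other 4 libraries were lower, and the groups overlapped widely. The mean was 34.8 ± 14.4 FPKM for wild-type and 30.2 ± 10.6 FPKM for Tet1-deficient mice (SD, n = 3), a log2 difference of −0.18 with a 95% interval from −0.97 to 0.61. This interval is the widest of the 10 and does not show that the level was alike. The sign turned without wild-type replicate 1 (log2 difference 0.13) and without Tet1-deficient replicate 2 (0.06), and in the 4 libraries that lie together the difference was −0.12. Within a genotype the SD of log2(FPKM + 1) was 0.52, larger than that of 98.3% of tested genes. Dusp6 lies at 99263231 to 99267489 on chromosome 10 (GRCm38, plus strand), and the annotation places no other gene over it.

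The spread of Dusp6 over libraries resembled that of some immediate early genes, the first to be transcribed after a neuron fires. Of 12 listed immediate early genes, 7 shared with Dusp6 that replicate 1 of each genotype held the highest values, against 28.5% of all tested genes. For 1 of the 12, Egr3, named after its values were seen, the same libraries held the lowest, with 282 and 287 FPKM against 330 to 406 FPKM in the others. In the deposited values, the 3 tested genes outside the 10 whose deviations over the 6 libraries lay closest to those of Dusp6 were Fam107b, Egr1 and Nr4a1. Their root mean square log2 distances were 0.084, 0.094 and 0.096. Egr1, a zinc finger transcription factor gene, measured 169, 87.4 and 81.2 FPKM for wild-type and 144, 74.0 and 107 FPKM for Tet1-deficient replicates 1 to 3. For Dusp6, Egr1, Fos and Nr4a1 alike, wild-type replicate 1 was the highest library and Tet1-deficient replicate 1 the next. Nr4a1 measured 79.0, 41.1 and 31.9 FPKM for wild-type and 58.7, 33.1 and 43.5 FPKM for Tet1-deficient replicates. Arc, whose transcript is also activity-induced, had another order, with 209, 224 and 215 FPKM for wild-type and 181, 191 and 271 FPKM for Tet1-deficient replicates. These 6 libraries share the split described above, and no correlation was computed over them. When the trend on GC content and transcript length was removed from each library, a step chosen after seeing the data, Dusp6 was again highest in replicate 1 of each genotype. Its log2 deviation from the gene mean was 0.71 in wild-type replicate 1 and 0.41 in Tet1-deficient replicate 1 before removal. After it the values were 0.68 and 0.42. The longest Dusp6 transcript has a GC content of 49.0%. Over tested genes with a GC content of 47.9% to 51.7%, the median deviation in these libraries was −0.013 and −0.038. Removal of the GC trend could therefore move Dusp6 only little. Whether its pattern depends on GC content was not tested by this step.

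**Figure D2:**
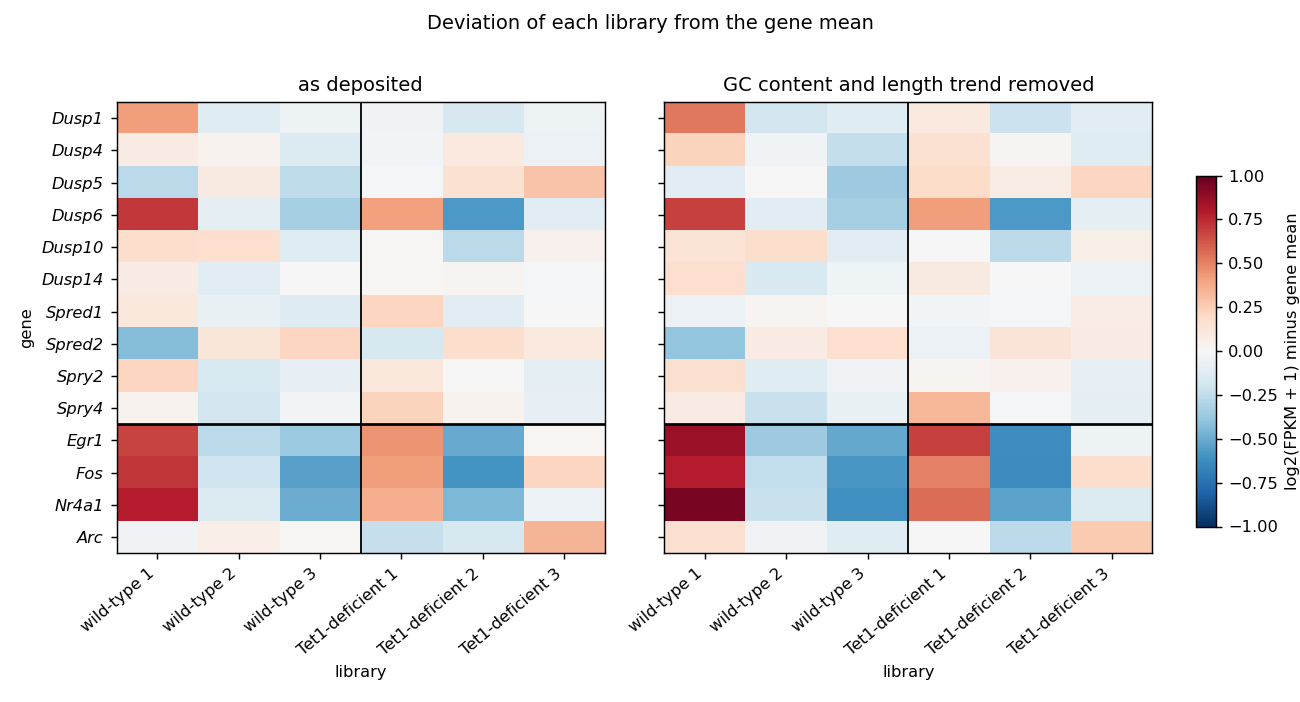
Deviation of log2(FPKM + 1) from the mean of each gene, by library, for the 10 feedback genes (above the thick line) and for Egr1, Fos, Nr4a1 and Arc, as deposited (left) and after removal of the GC content and length trend (right). Red is above and blue below the gene mean. Dusp6 is red in replicate 1 of each genotype in both panels, with deviations of 0.71 and 0.41 on the left, and the Spred1 row, at 0.11 and 0.21 there, turns blue on the right.

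The genes of nuclear phosphatases did not pass the test. Dusp1, an immediate early gene itself, measured 12.1, 8.06 and 8.51 FPKM for wild-type and 8.61, 7.80 and 8.52 FPKM for Tet1-deficient replicates 1 to 3. Wild-type replicate 1 stood above the other 5 libraries, which lay between 7.80 and 8.61 FPKM. The mean was 9.56 ± 2.23 FPKM for wild-type and 8.31 ± 0.444 FPKM for Tet1-deficient mice (SD, n = 3), a log2 difference of −0.16 with a 95% interval from −0.52 to 0.20. When wild-type replicate 1 was left out the value was 0.0030, so the sign of the Dusp1 difference rests on that library. The annotated Dusp1 locus (chromosome 17, 26505590 to 26562128, minus strand) overlaps Ergic1 and Gm8225 on the other strand and AC122252.1 and AC122252.4 on the same strand. This span reaches upstream of the RefSeq start, so the printed Dusp1 window lies inside it, outside its annotated exons. Whether the FPKM values used this span is unknown. Dusp10 (1700056E22Rik) and Spry4 (Gm27369 and Gm27804) also overlap annotated genes on the other strand. The sources used here do not give the strand setting of the counting, so reads of other-strand partners cannot be told apart. For same-strand partners the strand would not separate the reads. Dusp4 ranged from 31.4 to 37.3 FPKM over the 6 libraries, with a log2 difference of 0.01 and a 95% interval from −0.23 to 0.25.

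Dusp5, the nuclear ERK phosphatase gene, had the largest difference of the 10. It measured 12.2, 15.9 and 12.4 FPKM for wild-type and 14.8, 16.8 and 18.5 FPKM for Tet1-deficient replicates 1 to 3. The highest 2 libraries were Tet1-deficient and the lowest 2 wild-type, and wild-type replicate 2 lay above Tet1-deficient replicate 1, so the groups overlapped as deposited. With the GC content and length trend removed, a step chosen after seeing the data, the Dusp5 groups did not overlap. The deviations were then −0.11, 0.0066 and −0.37 for wild-type and 0.18, 0.072 and 0.21 for Tet1-deficient replicates 1 to 3. How many tested genes did not overlap after that removal was not computed. The mean was 13.5 ± 2.11 FPKM for wild-type and 16.7 ± 1.81 FPKM for Tet1-deficient mice (SD, n = 3), a ratio of 1.23. The log2 difference of 0.29 had an SE of 0.134 and a 95% interval from −0.03 to 0.61, and limma's unadjusted p was 0.0687 (adjusted p 1.00). It kept its sign in all 15 alternatives, with values from 0.22 to 0.41, and its adjusted p was at least 0.335 in them. The 95% interval of Dusp5 lay above 0 in 6 of these 15, namely median-of-ratios scaling (0.0017 to 0.62), library weights (0.089 to 0.52), the split of 2 libraries from 4 as a term (0.066 to 0.51), GC content and length removed (0.063 to 0.56), without wild-type replicate 2 (0.089 to 0.72) and without Tet1-deficient replicate 1 (0.027 to 0.71). These intervals are not adjusted for the number of genes tested. An unadjusted limma p under 0.05 was reached by 171 of 12533 tested genes in the main fit. In these 6 settings, in the order given, 168, 1232, 848, 279, 204 and 173 genes reached it. Wild-type replicate 2 was the highest wild-type and Tet1-deficient replicate 1 the lowest Tet1-deficient library for Dusp5. Leaving out either must therefore widen the difference. Over libraries the 2 tested genes most like Dusp5 were Mt1 and Ddit4, both at a root mean square log2 distance of 0.074. Mt1, a metallothionein gene, measured 600, 755 and 644 FPKM for wild-type and 797, 831 and 837 FPKM for Tet1-deficient replicates. The 2 CArG boxes printed above belong to this gene, which lies at 53529109 to 53542431 on chromosome 19 (plus strand) and overlaps the annotated AC137853.2 on the other strand.

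Dusp10 and Dusp14, the remaining phosphatase genes of the 10, did not pass either. Dusp10, whose product prefers JNK and p38, ranged from 1.89 to 2.94 FPKM. Its mean was 2.69 ± 0.418 FPKM for wild-type and 2.33 ± 0.385 FPKM for Tet1-deficient mice (SD, n = 3), a log2 difference of −0.15 with a 95% interval from −0.46 to 0.17. It was below 0 in all 15 alternatives, and with 1 library left out it ran from −0.25 to −0.048. Dusp14, a small atypical phosphatase without the MAP kinase-binding domain of the others, was the steadiest of the 10. It ranged from 9.25 to 10.7 FPKM, its log2 difference was 0.02 with a 95% interval from −0.19 to 0.23, and 11.4% of tested genes had a smaller SD within genotype.

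**Figure D3:**
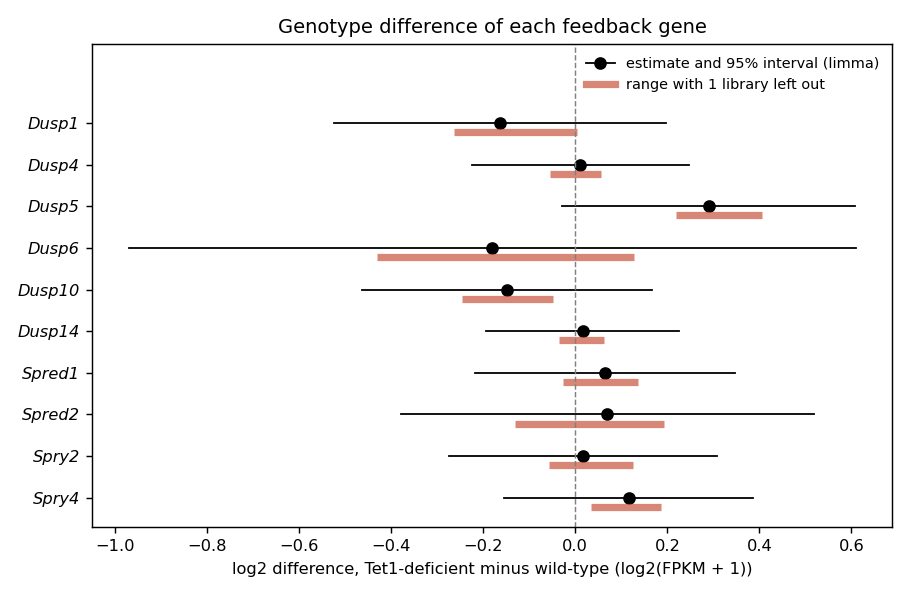
Log2 difference of each feedback gene, Tet1-deficient minus wild-type, from limma on log2(FPKM + 1). Black points and lines are estimates with 95% intervals and red bars the range when 1 library is left out; every interval spans 0, that of Dusp6 is the widest (−0.97 to 0.61), and Dusp5 has the highest estimate (0.29).

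Among the Sprouty and Spred genes, Spred2 varied most. It measured 42.5, 63.1 and 67.3 FPKM for wild-type and 51.6, 65.5 and 61.9 FPKM for Tet1-deficient replicates 1 to 3. Here replicate 1 of each genotype was low, the reverse of Dusp6, and the other 4 libraries lay between 61.9 and 67.3 FPKM. The log2 difference was 0.07 with a 95% interval from −0.38 to 0.52, and in the 4 libraries that lie together it was −0.03. The genes most like Spred2 were Ptpn23, Ankrd13b and Mbd6, at root mean square log2 distances of 0.022, 0.023 and 0.028. The longest Spred2 transcript has a GC content of 51.2%, in the same range of 47.9% to 51.7% as Dusp6. Replicate 1 of each genotype stayed lowest after removal of the GC content and length trend, with a Spred2 deviation of −0.39 in wild-type replicate 1 and −0.06 in Tet1-deficient replicate 1, against −0.44 and −0.16 before.

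Spred1, whose product also recruits neurofibromin, ranged from 37.1 to 47.4 FPKM, with a log2 difference of 0.07 (95% interval −0.22 to 0.35). As deposited, replicate 1 of each genotype held the highest Spred1 values. With the GC content and length trend removed the same libraries held the lowest, with deviations of −0.06 and −0.02. The longest Spred1 transcript has a GC content of 41.2%, the lowest of the 10. Spry2, an inhibitor of receptor signalling to ERK, ranged from 44.9 to 58.1 FPKM (log2 difference 0.02, 95% interval −0.27 to 0.31). Spry4 ranged from 4.35 to 6.07 FPKM. Its mean was 4.84 ± 0.439 FPKM for wild-type and 5.34 ± 0.684 FPKM for Tet1-deficient mice (SD, n = 3), a log2 difference of 0.12 with a 95% interval from −0.15 to 0.39 that spans 0. The Spry4 difference was above 0 in all 15 alternatives, and with 1 library left out it ran from 0.034 to 0.19.

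The libraries were not ordered alike by the 10 genes. Replicate 1 of each genotype held the highest values for Dusp1, Dusp6, Spred1 and Spry2 and the lowest for Spred2, while Dusp4, Dusp5, Dusp10, Dusp14 and Spry4 followed neither order. For Dusp1 this rests on a near tie, with 8.61 FPKM in Tet1-deficient replicate 1 and 8.52 FPKM in Tet1-deficient replicate 3. Among all tested genes replicate 1 of each genotype held the highest values for 28.5% and the lowest for 35.0%. With GC content and length removed these libraries were highest for Dusp1, Dusp4, Dusp6, Dusp14 and Spry4 and lowest for Spred1 and Spred2. The share over all tested genes was not computed after that removal. For Spred1 the deviation was then −0.025 in Tet1-deficient replicate 1 and −0.015 in Tet1-deficient replicate 2, the next library.

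**Figure D4:**
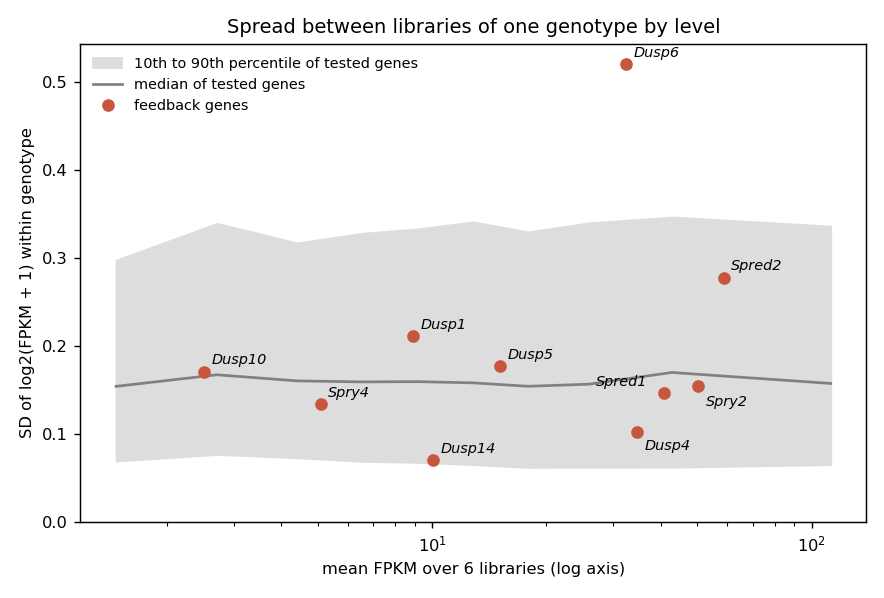
SD of log2(FPKM + 1) within genotype against mean FPKM over 6 libraries (log axis) for the 10 feedback genes (red). The grey band and line are the percentile range and median of tested genes in bins of level; Dusp6, at 0.52, lies above the band, and the other 9 genes lie within it.

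Lists of other genes of the pathway also held 0 genes past the threshold, where 0.0319% of all tested genes passed it. At that share 0 in a short list says little about the list. Of the other typical MAP kinase phosphatases, Dusp7, Dusp8 and Dusp16 were tested and 0 passed the threshold. Dusp7, a cytoplasmic ERK phosphatase gene, had 28.3 ± 4.88 FPKM for wild-type and 25.3 ± 1.77 FPKM for Tet1-deficient mice (SD, n = 3, log2 difference −0.14). Dusp8 measured 36.5 ± 1.17 and 35.6 ± 3.09 FPKM. Dusp2 and Dusp9 lay under the filter, at 0.244 to 0.477 and 0.110 to 0.267 FPKM. Of 11 tested atypical dual-specificity phosphatase genes 0 passed (median log2 difference 0.0099). Dusp23 and Dusp26 had log2 differences of −0.31 and −0.32, with unadjusted p of 0.0658 and 0.300.

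Of 10 tested genes of other Sprouty, Spred and receptor feedback inhibitors 0 passed (median 0.04). Lrig1, of a transmembrane protein that promotes loss of receptor tyrosine kinases, had 9.71 ± 1.63 FPKM for wild-type and 7.49 ± 1.11 FPKM for Tet1-deficient mice (SD, n = 3, log2 difference −0.33, unadjusted limma p 0.0594), and its libraries overlapped. Spred3 had a log2 difference of 0.11 and Socs5 of 0.03. Errfi1, an inducible inhibitor of the EGF receptor, named after its values were seen, measured 53.9, 30.9 and 27.2 FPKM for wild-type and 45.5, 32.2 and 36.4 FPKM for Tet1-deficient replicates 1 to 3. As for Dusp6, replicate 1 of each genotype was the highest. Of 7 tested Ras GTPase-activating protein genes 0 passed, with log2 differences from −0.05 to 0.02. Nf1, which encodes neurofibromin, the partner of the Spred proteins, measured 7.88 ± 0.715 and 7.85 ± 1.06 FPKM. Rasa3, Rasal2 and Dab2ip had log2 differences of −0.05, −0.04 and −0.03.

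Upstream and downstream of the feedback genes no listed gene passed either, against the same 0.0319% of all tested genes. Of 14 tested receptor tyrosine kinase genes 4 lay above 0 and 10 below (median −0.04). Ntrk2, the BDNF receptor gene, measured 126 ± 19.6 and 129 ± 31.5 FPKM. Kit was the 1 of these 14 genes whose groups did not overlap, where 4.13% of all tested genes did not. Kit measured 17.5, 15.9 and 16.2 FPKM for wild-type and 13.6, 15.2 and 14.7 FPKM for Tet1-deficient replicates (log2 difference −0.18, unadjusted limma p 0.0830). Pdgfrb and Kdr, receptor genes of mural and endothelial cells, had log2 differences of −0.27 and −0.14. Of 33 tested Ras to ERK cascade genes 16 lay above 0 and 17 below (median −0.0020). Mapk3, an ERK gene, measured 70.5 ± 10.9 FPKM for wild-type and 68.6 ± 11.6 FPKM for Tet1-deficient mice (SD, n = 3). Rps6ka3, a kinase gene downstream of ERK, had 11.4 ± 0.618 and 13.4 ± 1.58 FPKM (SD, n = 3, log2 difference 0.22, unadjusted limma p 0.0898), Rasgrf1 a log2 difference of −0.21 and Shc1 of −0.14.

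Of 21 tested p38 and JNK cascade genes 12 lay above 0 and 9 below (median 0.01), with Map3k11, Map3k4 and Map2k3 at −0.15, −0.10 and −0.07. Among 24 tested transcripts known to follow ERK activity 8 lay above 0 and 16 below (median −0.03), and the 3 with the smallest p, Etv1, Klf10 and Ier2, had log2 differences of −0.15, −0.11 and −0.14. Fos measured 25.2 ± 12.4 and 24.8 ± 8.59 FPKM. Among 12 immediate early genes, 9 of which are also on that list, 4 lay above 0 and 8 below (median −0.04), with Btg2 at −0.34 and Npas4 at −0.32. Both rest on wild-type replicate 1. Btg2 measured 27.2 FPKM there and 6.46 to 11.5 FPKM in the other 5 libraries, and Npas4 15.5 FPKM there and 3.94 to 8.03 FPKM in the others. Without that library the log2 difference was 0.26 for Btg2 and 0.20 for Npas4, and the median of the 12 was 0.23. With library weights that median was also 0.23, and over the 15 alternatives it ran from −0.23 to 0.23, above 0 in 4 of them. In all 15 alternatives 0 genes of these lists and 0 of the 10 feedback genes passed.

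**Figure D5:**
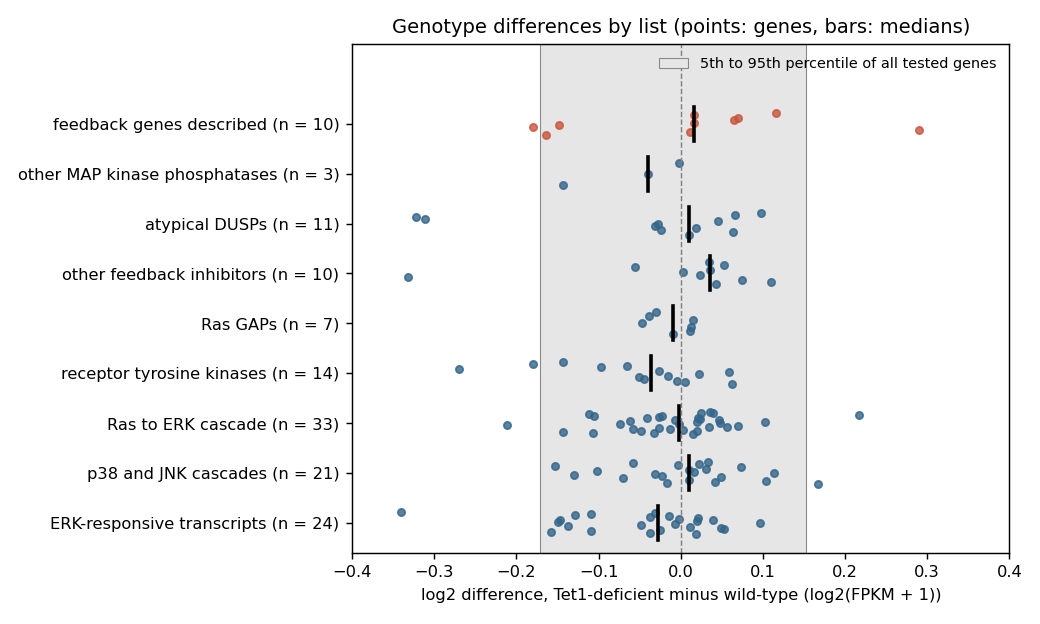
Log2 difference, Tet1-deficient minus wild-type, of each tested gene in the 10 feedback genes (red) and in 8 lists of related genes (blue), with black bars at the medians and the number of tested genes beside each name. The grey band runs from the 5th to the 95th percentile of all tested genes (−0.17 to 0.15). List medians lie between −0.04 and 0.04. Among the feedback genes Dusp5 (0.29) lies to the right of the band and Dusp6 (−0.18) just to its left.

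Neuron markers were present at unlike levels. Slc17a7 and Snap25, of excitatory terminals and synapses, ranged from 573 to 655 and from 1114 to 1386 FPKM. Prox1 and Zbtb20 ranged from 21.1 to 42.7 and from 3.30 to 5.79 FPKM. Of 10 tested neuron markers 0 passed the threshold. The groups did not overlap for 2 of them, against 4.13% of all tested genes. These were Camk2a, higher in Tet1-deficient mice (log2 difference 0.21), and Gad1, lower (−0.12). The groups overlapped for the other tested neuron markers, among them Slc17a7 (0.03), Syt1 (0.01) and Gad2 (−0.01). Of the 10 neuron markers 7 lay above 0 and 3 below. Of 13 tested markers of vessels and meninges 13 had a log2 difference below 0, and 0 passed the threshold. Among all 12533 tested genes 5901 lay below 0. The 13 markers were measured in the same libraries and are not independent observations. With Myh11, which lay under the filter, the 14 listed markers had a summed level of 73.2 to 113 FPKM for wild-type and 62.8 to 99.3 FPKM in Tet1-deficient libraries. These ranges overlap. The part of these markers in the values of the 10 genes was not tested. In bulk tissue the number of cells of a type and the RNA per cell cannot be told apart. The summed level of 7 choroid plexus markers was 305 FPKM in wild-type replicate 3 and 198 FPKM in Tet1-deficient replicate 2, against 7.45 to 22.3 FPKM in the others. These libraries were the 2 highest for Spred2 and the 2 lowest for Dusp6, Dusp10 and Spred1. For Dusp1, Dusp4, Dusp5, Dusp14, Spry2 and Spry4 they were neither. They were also the 2 lowest for Fos and Egr1. The share of all tested genes with these libraries as the 2 highest or 2 lowest was not computed. What choroid plexus cells contribute to the 10 genes was not tested.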

How the data were processed

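The deposited table gives gene-level FPKM values, each library in its own column. The authors, per the submitters' processing notes, used TopHat2 2.0.9 and Cufflinks 2.1.1 on mm10; the sources used here do not give the annotation, strand setting or filters. Low values did not step in whole reads: among 362 genes under 0.03 FPKM in 2 libraries at most 5 shared a ratio to 3 decimals.

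The 12533 genes averaging 1 FPKM or more were tested on log2(FPKM + 1) with limma 3.58.1 (R 4.3.3), with an intensity trend, two-sided, Benjamini-Hochberg adjusted over all of them at 0.05. The log2 scale with a pseudocount of 1 FPKM understates changes of low genes. Genes under the filter came from the same model on all 19123 genes above 0. Named genes are the 10, the 3 smallest p-values of each list, the 3 nearest patterns of the 3 most variable members, and Tet1, Ntrk2, Nf1, Mapk3, Fos, Egr1 and Arc; some genes that this rule names are not reported here. Outside it, Errfi1, Egr3, Camk2a, Gad1, Gad2 and Syt1 were named after their values were seen. Slc17a7, Snap25, Prox1, Zbtb20 and Myh11 were named as cell markers, and Dusp2 and Dusp9 as list members under the filter. The members and lists were chosen with earlier results of these data known. Replicate numbers follow accession order. Positions and GC content came from GENCODE M21 (GC content for 99.4% of tested genes), promoters from RefSeq.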

Additional observations from a re-analysis of the deposited data

How the results depend on the processing

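The analysis was repeated with a pseudocount of 0.1 FPKM, no filter, median-of-ratios scaling, quantile normalization, no intensity trend, estimated library weights, the split of 2 libraries from 4 as a term, the 4 libraries alone, GC content and length removed (chosen after seeing the data), and each library left out, 15 in all. None of the 10 genes passed the threshold in any of them. Dusp5, Dusp10 and Spry4 kept their direction throughout. The log2 difference turned sign with library weights for Dusp1 (0.014), Dusp4 (−0.017) and Spred2 (−0.032), with quantile normalization for Dusp4 (−0.016), in the 4 libraries for Spred2 (−0.033), and with GC content and length removed for Spry2 (−0.0063). With 1 library left out it ran from −0.26 to 0.0030 for Dusp1, −0.056 to 0.057 for Dusp4, 0.22 to 0.41 for Dusp5, −0.43 to 0.13 for Dusp6, −0.25 to −0.048 for Dusp10, −0.035 to 0.062 for Dusp14, −0.026 to 0.14 for Spred1, −0.13 to 0.19 for Spred2, −0.057 to 0.13 for Spry2 and 0.034 to 0.19 for Spry4. The cause was not tested. Over all genes 4 passed, against 59 with library weights, 8 with the split as a term, 12 in the 4 libraries, and 0 to 6 with 1 library left out. List medians stayed within the replicate spread, except that without Tet1-deficient replicate 1 those of other feedback inhibitors and of the Ras to ERK cascade were −0.040 and 0.048; over the libraries left out these ran from −0.040 to 0.072 and from −0.035 to 0.048. No paired analysis was possible because the replicate numbers follow accession order and pair no libraries. Read depth is unknown, so no limit from counts can be given.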
